A study of Homo sapiens with 4 samples.

Results

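*MDGA1*, *MDGA2*, *NLGN1*, *NLGN2*, *NRXN2*, and *NRXN3* encode proteins of a cell adhesion system of synapses, and their RNA was followed before and after chemotherapy in BT-16 and CHLA-266, a pair of AT/RT-MYC cell lines. The 6 genes were chosen by name from the MDGA, neuroligin, and neurexin families among the 18449 gene symbols of the deposited counts, and the families were picked on the treated against untreated contrast of these libraries, because *MDGA1* had the smallest adjusted *p* value among the genes with higher expression after treatment. The change with treatment is therefore given for the 6 genes as a description, without a *p* value. Both cell lines are established patient-derived lines of atypical teratoid/rhabdoid tumor (AT/RT), a malignant brain tumor of young children, of the DNA methylation subtype MYC. The untreated group held 1 library of BT-16 and 1 of CHLA-266, and the treated group held 1 of each after 1 µM doxorubicin and 5 µM etoposide, which block topoisomerase II, and 1 µM vincristine, which blocks microtubule assembly, given on consecutive days. According to the study's methods, most cells died, and the treated libraries hold the cells that grew back. All 4 libraries came from cells grown in the same serum-containing medium. With 1 library per cell line and condition, a condition held 2 libraries whose only replication was the cell line. The libraries of BT-16 held 75087193 counts before and 51489712 after treatment, and those of CHLA-266 held 66192504 and 49849257.

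Neurexins are presynaptic membrane proteins that bind neuroligins on the postsynaptic side, and this bridge helps to organize both sides of a synapse. MDGA proteins carry immunoglobulin-like domains and a MAM domain, are held in the membrane by a glycosylphosphatidylinositol (GPI) anchor, and bind neuroligins so that neurexins cannot, which makes them brakes on synapse formation. NLGN1 is best known from excitatory and NLGN2 from inhibitory synapses. *SMARCB1*, whose protein is lost in most AT/RT, had RNA in every library, with 1394 counts before and 981 after treatment of BT-16, and 1313 before and 827 after treatment of CHLA-266. Counts per gene do not show which exons were read. *MYC* went from 14275 to 6804 counts with treatment of BT-16 and from 11515 to 7505 with that of CHLA-266. In bulk libraries, fewer cells that express a gene and less RNA per cell cannot be told apart.

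*MDGA1* (ENSG00000112139) spans bases 37630679 to 37699306 of chromosome 6 (hg38, minus strand), and no other annotated gene overlaps it. BT-16 cells gave 91 *MDGA1* counts before and 4654 after treatment. CHLA-266 cells gave 50 before and 4741 after it. Both treated libraries were far above both untreated libraries, and the treated libraries of the cell lines were close to each other. After scaling by library size with TMM (trimmed mean of M-values), this was a counts-per-million (CPM) level of 1.32 and 80.5 in BT-16 and of 0.812 and 91.2 in CHLA-266. The mean was 1.07 ± 0.358 CPM before and 85.9 ± 7.58 CPM after treatment (SD, *n* = 2 libraries each). *MDGA1* was 60.7-fold higher after treatment in BT-16 and 111-fold higher in CHLA-266. As log2 ratios of the treated to the untreated library, these changes were 5.92 in BT-16 (95% interval 5.63 to 6.25, exact Clopper-Pearson) and 6.80 in CHLA-266 (6.41 to 7.24). These intervals cover counting error only. Low counts were mostly even, with 20.5% to 34.2% of counts from 1 to 20 being odd, a pattern seen if each mate of a read pair is counted, and halved counts widened the intervals to 5.52 to 6.41 and 6.25 to 7.44. The log2 fold change over both cell lines in edgeR was 6.32 with a standard error of 0.28. *MDGA1* ranked 1 by log2 fold change among the 12620 genes that reached 10 counts in all 4 libraries. Among all 18066 genes tested, 792 had a larger log2 fold change, 359 of them with an adjusted *p* value under the threshold of 0.05.

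The RefSeq promoter windows of the 3 member genes whose RNA stood clearly above background are shown as the annotated starts of these genes, and which starts the cells used was not measured. Each window runs 5′ to 3′ on the strand of the gene from 250 bases before to 50 bases after an annotated start in GRCh38.p14, and capitals mark a match to TGANTCA, the letters of the AP-1 motif. They are *MDGA1* at chr6:37697834-37698133 on the minus strand, *NLGN1* at chr3:173395702-173396001 and chr3:173397494-173397793 on the plus strand, and *NLGN2* at chr17:7407595-7407894 on the plus strand.
MDGA1: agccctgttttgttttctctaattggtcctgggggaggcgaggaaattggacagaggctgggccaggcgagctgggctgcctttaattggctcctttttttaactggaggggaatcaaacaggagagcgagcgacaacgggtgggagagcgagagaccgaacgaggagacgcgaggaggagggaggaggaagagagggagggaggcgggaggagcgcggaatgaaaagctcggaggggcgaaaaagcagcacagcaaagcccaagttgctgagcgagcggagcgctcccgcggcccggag
NLGN1, first window: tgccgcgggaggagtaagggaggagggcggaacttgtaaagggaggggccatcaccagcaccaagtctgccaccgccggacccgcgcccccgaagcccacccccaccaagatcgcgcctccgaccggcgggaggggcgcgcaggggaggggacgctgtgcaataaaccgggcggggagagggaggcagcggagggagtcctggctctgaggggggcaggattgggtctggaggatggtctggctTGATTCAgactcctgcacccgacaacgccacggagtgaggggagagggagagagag
NLGN1, second window: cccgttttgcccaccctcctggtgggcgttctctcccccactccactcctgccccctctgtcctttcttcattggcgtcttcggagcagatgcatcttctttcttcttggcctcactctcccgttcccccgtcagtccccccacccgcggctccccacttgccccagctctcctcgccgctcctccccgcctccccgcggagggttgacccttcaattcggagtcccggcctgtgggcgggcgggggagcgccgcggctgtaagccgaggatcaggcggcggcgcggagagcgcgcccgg
NLGN2: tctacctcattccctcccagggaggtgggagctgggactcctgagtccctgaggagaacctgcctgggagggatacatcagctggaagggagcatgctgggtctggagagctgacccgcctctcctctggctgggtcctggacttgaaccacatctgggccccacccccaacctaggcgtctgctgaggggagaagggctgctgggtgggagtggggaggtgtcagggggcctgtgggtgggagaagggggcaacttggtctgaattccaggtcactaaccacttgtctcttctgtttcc
The *MDGA1* window held 60.3% G and C and 21 CG pairs, against a median of 58.7% and 14 pairs over 35116 RefSeq promoter windows. The *NLGN1* windows held 68.3% and 69.3% with 22 and 28 CG pairs. The *NLGN2* window held 61.7% and 2 CG pairs, so it differed from the other windows shown in CG pairs rather than in base composition. RefSeq windows were matched for 5 of the 6 genes, 9 windows in all, and not for *NRXN2*. Both strands were searched for TGANTCA, for TGACNNNGC (the core of the antioxidant response element), for CACGTG (an E-box bound by MYC), and for TTCAGCACC and GGACAGNGC (the parts of the site of REST, a repressor of neuronal genes). Of all windows, 7.71%, 13.3%, 7.26%, 0.376%, and 2.32% held these letters, respectively. In the 9 windows of the member genes, the only match was TGANTCA in the first *NLGN1* window shown. A match is a description of letters, and the absence of one says only that these letters are not in this window.

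*MDGA2* (ENSG00000139915, chromosome 14, 46840092 to 47675605, minus strand), the close relative of *MDGA1* with the same domains and anchor, was barely detected. Treatment took it from 4 to 26 counts in BT-16 cells and from 5 to 44 in CHLA-266 cells. The treated libraries lay above the untreated ones in both cell lines, but at a level far below that of *MDGA1*. The log2 ratio was 2.81 in BT-16 (95% interval 1.43 to 4.93, Clopper-Pearson as throughout) and 3.26 in CHLA-266 (2.05 to 5.07), and the log2 fold change was 3.18 with a standard error of 1.27. Of the summed *MDGA1* and *MDGA2* level per kilobase of exon, *MDGA1* made up 92.9% and 85.1% in untreated and 99.0% and 98.4% in treated BT-16 and CHLA-266 cells.

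Both neuroligin genes were well expressed before treatment. *NLGN1* (ENSG00000169760, chromosome 3, 173396284 to 174294372, plus strand) had a count of 16835 before and 8613 after treatment of BT-16. For CHLA-266, the counts were 12861 before and 9555 after treatment. This was 244 CPM before and 149 after treatment in BT-16, and 209 before and 184 after it in CHLA-266, so that both treated libraries were below both untreated libraries, by a smaller step in CHLA-266. The log2 ratio was -0.71 in BT-16 (95% interval -0.75 to -0.67) and -0.18 in CHLA-266 (-0.22 to -0.15), and the log2 fold change was -0.44 with a standard error of 0.18. The value of *NLGN1* depended on the scaling, with -0.10 under upper-quartile normalization and -0.22 with library totals.

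*NLGN2* (ENSG00000169992, chromosome 17, 7404874 to 7419860, plus strand) had a count of 3198 before and 1412 after treatment of BT-16. For CHLA-266, the counts were 2531 before and 1227 after treatment. The treated libraries were close to each other at 24.4 and 23.6 CPM and below the untreated libraries at 46.4 and 41.1 CPM. The level was 1.90-fold lower after treatment in BT-16 and 1.74-fold lower in CHLA-266, with log2 ratios of -0.92 (95% interval -1.02 to -0.83) and -0.80 (-0.90 to -0.70). Its log2 fold change was -0.86 (standard error 0.18) and stayed between -0.95 and -0.52 over 13 alternatives. *NLGN3* and *NLGN4X* on the X chromosome are not analysed here, since the authors removed genes of the sex chromosomes.

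The neurexin genes *NRXN2* and *NRXN3* had few counts before treatment and more after it. *NRXN2* (ENSG00000110076, chromosome 11, 64606174 to 64723197, minus strand) went from 31 to 191 counts with treatment of BT-16 cells and from 21 to 165 with that of CHLA-266 cells. Its log2 ratio was 2.86 in BT-16 (95% interval 2.33 to 3.48) and 3.19 in CHLA-266 (2.56 to 3.95), with a log2 fold change of 3.03 (standard error 0.57). The intervals of the cell lines overlapped. The exons of 1 antisense gene, *NRXN2-AS1*, overlap exons of *NRXN2*, and whether the counting used the strand is not given in the sources used here.

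*NRXN3* (ENSG00000021645, chromosome 14, 78170373 to 79868291, plus strand) had 6 counts before and 204 after treatment of BT-16. In CHLA-266, 20 counts before treatment stood against 222 after it. The treated libraries were close at 3.53 and 4.27 CPM, and the untreated ones were at 0.0870 and 0.325 CPM. The log2 ratio was 5.23 in BT-16 (95% interval 4.20 to 6.81) and 3.68 in CHLA-266 (3.05 to 4.46). The log2 fold change of 4.24 (standard error 0.73) was 5.45 without the untreated CHLA-266 library and 3.58 without the untreated BT-16 library, so its size rested on 6 and 20 counts.

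**Figure D1:**
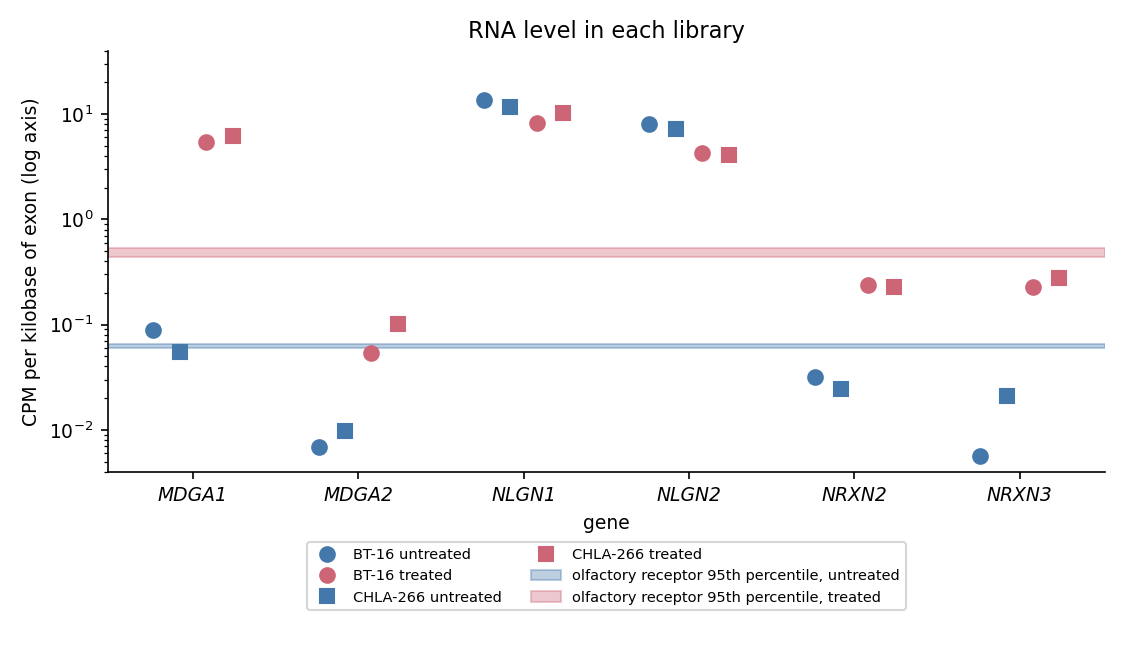
RNA level of the 6 genes in each of the 4 libraries, as TMM-scaled CPM per kilobase of exon on a log axis, with bands for the range of the 95th percentile of olfactory receptor genes in the untreated and the treated libraries. Treated *MDGA1* points (5.48 and 6.21) lie above the treated band, whereas *MDGA2*, *NRXN2*, and *NRXN3* lie below it in both treated libraries.

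Levels were compared between genes only per kilobase of exon. In the treated libraries, *NLGN1* was highest (8.32 CPM per kilobase for BT-16, 10.3 for CHLA-266), followed by *MDGA1* (5.48 and 6.21), *NLGN2* (4.27 and 4.13), *NRXN3* (0.227 and 0.275), *NRXN2* (0.236 and 0.227), and *MDGA2* (0.0535 and 0.101). *NRXN2* and *NRXN3* overlapped and did not differ beyond their spread. In the untreated libraries, the order was *NLGN1* (13.6 and 11.7), *NLGN2* (8.11 and 7.19), *MDGA1* (0.0898 and 0.0553), *NRXN2* (0.0321 and 0.0244), *NRXN3* (0.00560 and 0.0209), and *MDGA2* (0.00690 and 0.00966), and the values of the last pair overlapped. *MDGA1* thus moved from below to above *NLGN2* in both cell lines. Among 17985 genes with an exon length, *MDGA1* stood at percentile 31.4 and 28.5 before treatment and at 70.4 and 71.8 after it in BT-16 and CHLA-266. *NRXN3* went from percentile 13.2 to 22.5 and from 22.2 to 31.4. *NRXN2* stood at 24.7 and 23.1 before and 23.2 and 28.9 after treatment, and *MDGA2* at 14.0 and 18.1 before and 5.15 and 17.7 after it, so that *MDGA2* took a lower place among all genes in both treated libraries although its own level was higher.

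Genes that these cells should not use gave a measure of the lowest meaningful level. Of 342 olfactory receptor genes, 124 and 92 had reads in untreated BT-16 and CHLA-266 cells, and 300 and 214 had reads after treatment. Their 95th percentile was 0.0604 and 0.0651 CPM per kilobase in untreated and 0.532 and 0.443 in treated BT-16 and CHLA-266 cells. Treated *MDGA1* lay above every olfactory receptor gene, whose maximum reached 1.02 with BT-16 and 1.41 with CHLA-266. *NLGN1* and *NLGN2* lay above all of them in all 4 libraries. *NRXN2*, *NRXN3*, and *MDGA2* lay below the 95th percentile in all 4 libraries, with 63, 67, and 220 olfactory receptor genes at or above them in treated BT-16 cells and 44, 34, and 109 in treated CHLA-266 cells. Untreated *MDGA1* was slightly above the 95th percentile in BT-16 and below it in CHLA-266. The median log2 fold change of the olfactory receptor genes was 4.16, and 28 of the 342 (8.19%) were past the threshold in edgeR. Their part in the higher values of *NRXN2*, *NRXN3*, and *MDGA2* was not tested.

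**Figure D2:**
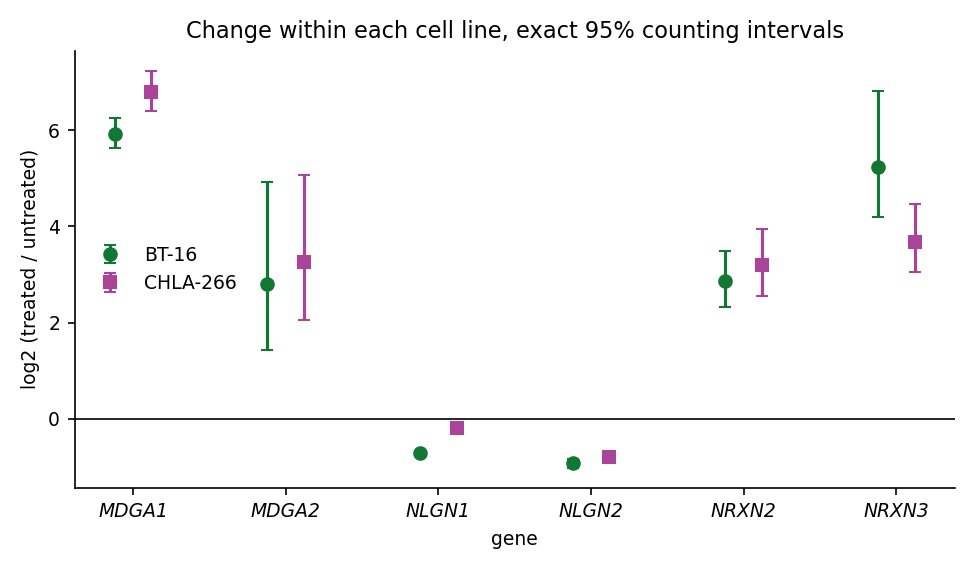
Log2 ratio (treated to untreated library) for each of the 6 genes within BT-16 (circles) and CHLA-266 (squares), with exact Clopper-Pearson 95% intervals that cover counting error only. *MDGA1*, *MDGA2*, *NRXN2*, and *NRXN3* lie above 0 and *NLGN1* and *NLGN2* below 0 in both cell lines.

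Thus, 4 of the 6 genes were higher and 2 were lower after treatment in both cell lines. In edgeR, 3 passed an adjusted *p* value of 0.05 as higher (*MDGA1*, *NRXN2*, and *NRXN3*) and 1 lower (*NLGN2*), where 16.1% of all genes tested were called higher and 19.1% lower. Nothing is read from these calls, because the contrast was used to pick the families. With the cell line as a replicate block, 3 were called higher and 2 lower, the second being *NLGN1*. *MDGA2* was also called higher in DESeq2, with the filter of edgeR on low counts, and in limma on the deposited variance-stabilized (VST) values. The median log2 fold change of all genes was 0.24 with TMM and 0.59 with upper-quartile normalization, 2910 genes were called higher and 3454 lower with the former and 4361 and 1895 with the latter, and all 6 genes kept their sign under the 13 alternatives that gave them a value.

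The RNA of the MDGA genes and of *NLGN1* and *NLGN2* thereby came closer in level. The summed level of *MDGA1* and *MDGA2* went from 0.0967 CPM per kilobase before treatment to 5.53 after it in BT-16 cells. In CHLA-266 cells, it went from 0.0650 to 6.31. The summed level of *NLGN1* and *NLGN2* went from 21.7 to 12.6 in BT-16 cells and from 18.9 to 14.4 in CHLA-266 cells. The ratio of the MDGA sum to the sum of *NLGN1* and *NLGN2* was 0.00445 and 0.00344 before treatment and 0.440 and 0.438 after it. *NLGN3*, *NLGN4X*, and *NLGN4Y* are not in the counts, so this is not a ratio to the whole neuroligin family. The ratio of *MDGA1* to *NLGN2* alone went from 0.0111 to 1.28 in BT-16 and from 0.00769 to 1.50 in CHLA-266. RNA levels do not give the amounts of protein at the cell surface. The smallest two-sided *p* that an exact permutation test of such a ratio allows for groups of 2 is 0.333.

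**Figure D3:**
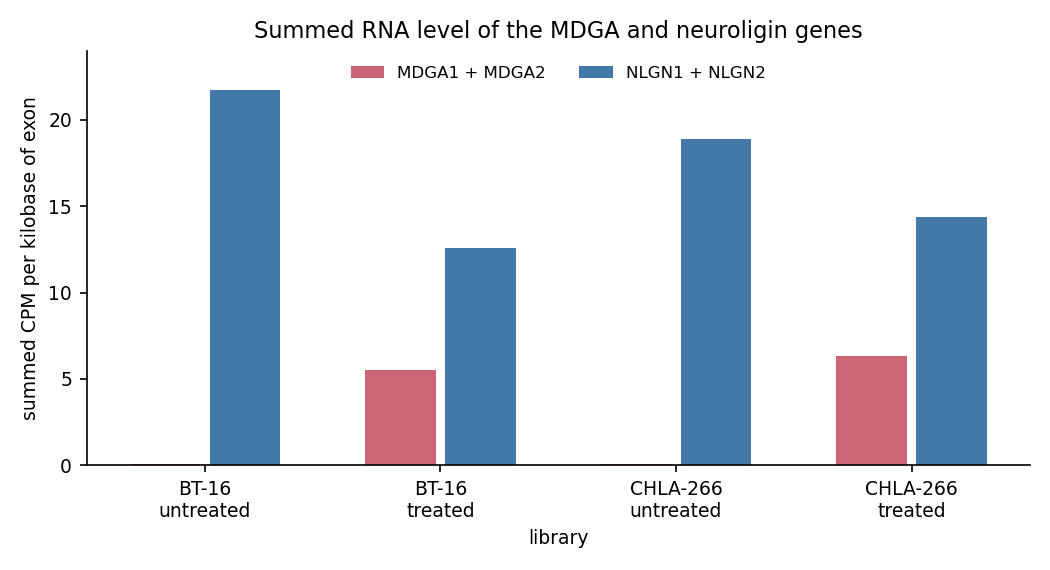
Summed TMM-scaled CPM per kilobase of exon of *MDGA1* with *MDGA2* and of *NLGN1* with *NLGN2* in each library (1 bar per sum, no replicates within a library). Neuroligin genes of the sex chromosomes are not in the counts. MDGA bars are too low to see before treatment and reach 5.53 and 6.31 after it, while neuroligin bars are lower after treatment.

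The comparison of the cell lines was not used to pick the genes and could be tested, with the condition in the model. By edgeR's quasi-likelihood test, 0 of the 6 genes differed between BT-16 and CHLA-266 with an adjusted *p* value below 0.05, and 0 had an unadjusted *p* below it. Limma and DESeq2 also called 0 of them. Over all genes, 1.46% were higher and 0.836% lower in BT-16 by adjusted *p* value in edgeR, and 10.0% had an unadjusted *p* below 0.05. The log2 difference (BT-16 minus CHLA-266) was 0.14 (standard error 0.20, adjusted *p* = 0.963 in edgeR) for *MDGA1*, with a mean of 40.9 CPM in BT-16 and 46.0 in CHLA-266. The fitted difference and the means have opposite signs, because BT-16 was higher before treatment (1.32 against 0.812 CPM) and CHLA-266 after it (91.2 against 80.5 CPM), so no direction is read from it. It was -0.04 (standard error 0.15) for *NLGN1*, 0.11 (0.17) for *NLGN2*, and 0.21 (0.64) for *NRXN2*. *NRXN3* had -0.91 (standard error 0.65, adjusted *p* = 0.777 in edgeR), which was -0.28 without an untreated library and -1.90 without a treated one, and *MDGA2* had -0.72 with a standard error of 1.73. A *p* value above the threshold does not show that the cell lines are alike, and for *MDGA2*, *NRXN2*, and *NRXN3* the standard errors leave room for differences of more than 1 on the log2 scale. Whether the cell lines differed in their response could not be tested with 1 library per cell line and condition.

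The genes around *MDGA1* were looked at to see whether the chromosome region as a whole was higher. The 3 nearest protein-coding genes with counts on the side of lower coordinates were *CCDC167*, *CMTR1*, and *RNF8*, at distances of 130.8, 147.9, and 235.9 kb. On the other side were *ZFAND3*, *BTBD9*, and *GLO1*, at 120.4, 469.1, and 976.6 kb. *ZFAND3* rose by 0.73 on the log2 scale (standard error 0.17; edgeR, adjusted *p* = 0.0116). *GLO1*, the enzyme that clears methylglyoxal, fell by 1.00 on the log2 scale (standard error 0.18; edgeR, adjusted *p* = 0.00359). *CMTR1* (-0.61) and *CCDC167* (-0.68) also fell, and *RNF8* (0.02) and *BTBD9* (0.20) did not pass the threshold. No neighbor came near the log2 fold change of *MDGA1*.

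The 5 genes whose pattern over the 4 libraries was most like that of *MDGA1*, by Euclidean distance of centered log2 CPM among the 14008 genes whose total count reached 100, were *STUM*, *SOX9*, *GAL3ST1*, *ZNF831*, and *RP1*, at distances from 0.55 to 0.69. *SOX9*, a transcription factor of glial and cartilage lineages, went from 6 to 520 counts with treatment of BT-16 and from 6 to 508 with that of CHLA-266. *GAL3ST1*, the enzyme that makes sulfatide, had 0 counts in both untreated libraries and 110 and 114 counts after treatment, which is at least 88.8-fold higher against 3 counts over both untreated libraries. The other genes had at most 2 counts in an untreated library. On the deposited VST values, 0 of these 5 were among the 5 nearest, which were *JAG1*, *NPTX2*, *HMOX1*, *DSP*, and *TCHH*, so the likeness depended on the scale.

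To place the 6 genes in their pathway, 107 other genes were grouped in 6 lists, of which 99 had counts. By edgeR's quasi-likelihood test, 37 of the 99 (37.4%) were upregulated and 9 downregulated with a Benjamini-Hochberg adjusted *p* value below 0.05, beside 16.1% and 19.1% of all genes tested. With upper-quartile normalization, the counts were 44 and 4, beside 4361 and 1895 of all 18066 genes tested. The log2 fold change was positive for 78 of them, beside 57.3% of all genes, and the median was 1.02 beside 0.24. Of the 37 upregulated genes, 15 (40.5%) had fewer than 10 counts in both untreated libraries, as had 36.2% of all upregulated genes. Only 9 of the 37 (24.3%) lay above the 95th percentile of olfactory receptor genes (per kilobase of exon) after treatment of both cell lines, as did 45.9% of all upregulated genes. Among the 60 list genes that reached 10 counts in all 4 libraries, 17 were upregulated and 6 downregulated. Of all 12620 genes that reached it, 2253 were upregulated and 2553 downregulated.

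**Figure D4:**
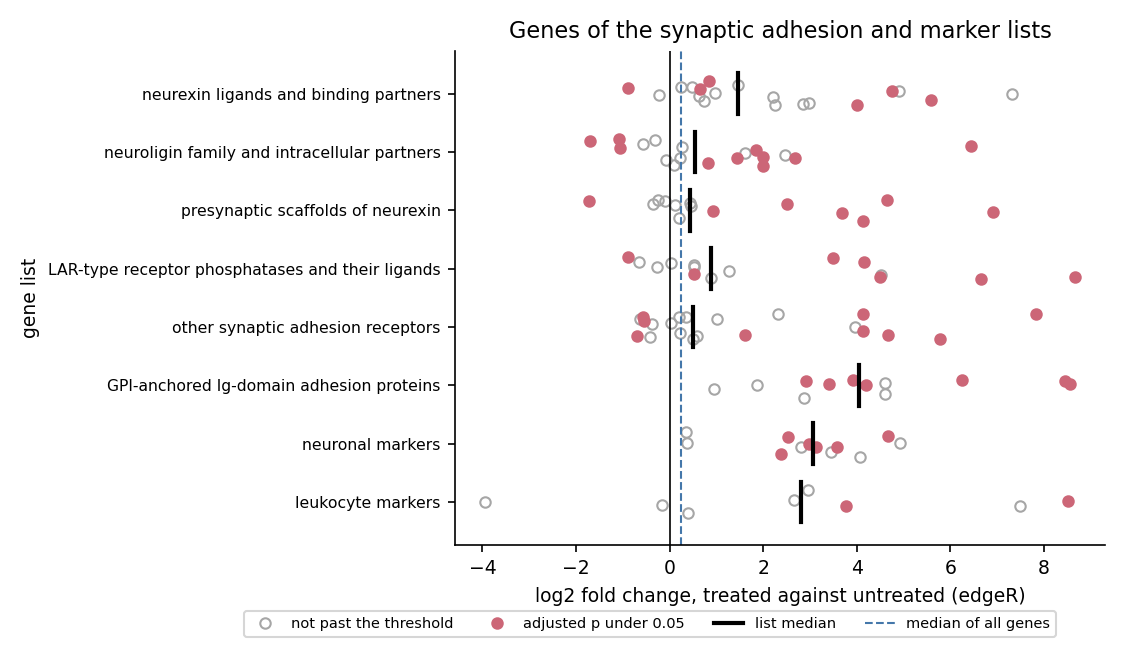
Log2 fold change of each gene of the 6 synaptic adhesion lists and of the neuronal and leukocyte marker lists, treated against untreated, with genes past an adjusted *p* value of 0.05 in edgeR filled, a bar at each list median, and a dashed line at the median of all genes (0.24). The GPI-anchored Ig-domain proteins have the highest median of the lists (4.05), and no member of that list lies below 0. The median of the olfactory receptor genes, not drawn, was 4.16.

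Of 19 binding partners of neurexin, 5 were upregulated and 1 was downregulated, with a median log2 fold change of 1.47. Of the 5, 2 lay above the 95th percentile of olfactory receptor genes in both treated libraries. *DAG1*, the dystroglycan gene and the most abundant of the list, rose by 0.84 on the log2 scale (standard error 0.17; edgeR, adjusted *p* = 0.00719), with 23917 counts before and 31861 after treatment of BT-16 and 20619 before and 34554 after treatment of CHLA-266. *IGSF21*, a partner at inhibitory synapses, rose from 0 to 93 and from 3 to 44 counts. Summed over both cell lines, the ratio was 54.3 (95% interval 18.2 to 267). This interval covers counting error only and leaves out the difference between the lines, whose log2 ratios were 7.8 (BT-16) and 3.91 (CHLA-266). *IGSF21* was not among those above that percentile. *ADGRL1*, the adhesion receptor latrophilin 1, fell by 0.88 on the log2 scale (14393 to 6374 counts in BT-16, 10113 to 4817 in CHLA-266; edgeR, adjusted *p* = 0.00781). Of 18 partners of neuroligins, 7 rose and 3 fell. Of the 7, 3 lay above that percentile in both treated libraries, and *DLGAP2* did not. *DLG1*, a scaffold protein of the postsynaptic density family, rose by 1.44 on the log2 scale (edgeR, adjusted *p* = 0.00358) and reached 37053 counts in BT-16 and 56714 in CHLA-266, after 20265 and 21231 before treatment. *DLGAP2*, a protein that links such scaffolds, rose from 4 to 189 and from 0 to 120 counts. *MAGI3*, another scaffold protein, fell by 1.70 on the log2 scale (8411 to 3197 counts in BT-16, 10145 to 1709 in CHLA-266; edgeR, adjusted *p* = 0.00188).

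Of 14 presynaptic scaffolds, 6 rose and 1 fell, with a median log2 fold change of 0.44. *PPFIA2*, a liprin, went from 0 to 188 counts with treatment of BT-16 and from 2 to 53 with that of CHLA-266. Summed over both cell lines, the ratio was 143 (95% interval 39.2 to 1190). That interval, too, covers counting error only, and the log2 ratios within the lines were 8.81 (BT-16) and 4.66 (CHLA-266). Of the 6 upregulated scaffolds, 1, not *PPFIA2*, lay above the 95th percentile of olfactory receptor genes in both treated libraries. *LIN7A*, which binds the neurexin partner CASK, fell by 1.72 on the log2 scale (7624 to 1726 counts in BT-16, 8428 to 2349 in CHLA-266; edgeR, adjusted *p* = 0.00086). *PPFIA1*, the most abundant of them, had a log2 fold change of -0.09 and did not pass the threshold. Of 15 receptor phosphatases of the LAR type and their ligands, 6 rose and 1 fell. Of the 6, 2 lay above the olfactory receptor percentile in both treated libraries, and *LRFN5* did not. *PTPRS*, the most abundant, rose by 0.53 on the log2 scale (standard error 0.18; edgeR, adjusted *p* = 0.0456). *LRFN5* had 0 counts before treatment and 49 and 44 after it, at least 36.9-fold higher against 3 counts over both untreated libraries. *LRFN4* fell (log2 fold change -0.90, adjusted *p* = 0.0169 in edgeR).

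Of 21 other synaptic adhesion receptors, 6 rose and 3 fell. Of the 6, 1 lay above the olfactory receptor percentile in both treated libraries, and *CADM3* did not. *CADM1*, a homophilic Ig-domain adhesion protein and the most abundant gene of the list, fell by 0.57 on the log2 scale (edgeR, adjusted *p* = 0.0445), from 104968 and 72620 counts before treatment to 49806 and 49657 after it in BT-16 and CHLA-266, respectively. Its relative *CADM2* had a log2 fold change of -0.70. By contrast, *CADM3* had 0 counts before treatment and 15 and 36 after it, at least 20.2-fold higher with both cell lines summed. Of 12 GPI-anchored Ig-domain adhesion proteins, which share the anchor and the Ig-like domains of MDGA1, 7 rose and 0 fell, and all 12 had a positive log2 fold change (median 4.05). They were rare RNAs, with a summed 1.77 and 1.48 CPM before and 19.3 and 8.56 CPM after treatment in BT-16 and CHLA-266, and 0 of the 7 lay above the 95th percentile of olfactory receptor genes in both treated libraries. *CNTN2*, a contactin and the most abundant of them, rose by 2.92 on the log2 scale (32 to 293 counts in BT-16, 30 to 111 in CHLA-266; edgeR, adjusted *p* = 0.00832). *CNTN5* had 0 counts before treatment and 78 and 11 after it, at least 35.3-fold higher with both cell lines summed.

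Markers of other cell types were counted in the same way. Of 12 neuronal markers, 6 rose and 0 fell (16.1% of all genes were called higher). Their median log2 fold change was 3.05, beside 4.16 for the olfactory receptor genes. Of the 6, only *MAP2* lay above the 95th percentile of olfactory receptor genes in both treated libraries. It rose from 469 to 1158 counts in BT-16 (6.80 to 20.0 CPM) and from 52 to 1255 in CHLA-266 (0.845 to 24.1 CPM). The summed level of the 12 markers, *MAP2* included, was 34.0 and 25.0 CPM before and 61.9 and 64.6 CPM after treatment in BT-16 and CHLA-266. At 0 were 1, 2, 0, and 0 of them in untreated BT-16, untreated CHLA-266, treated BT-16, and treated CHLA-266 cells. *SYN2*, a synaptic vesicle protein, rose from 4 to 106 and from 3 to 51 counts, and *RBFOX3*, the gene of the neuronal nuclear antigen NeuN, from 37 to 136 and from 25 to 136 counts. *SYT1*, the most abundant, had a log2 fold change of 0.38 and did not pass the threshold. Of 8 leukocyte markers, 2 rose and 0 fell, 0 of the 2 lay above that percentile in both treated libraries, and the summed level of the list was 6.45 and 3.51 CPM before and 10.3 and 6.23 CPM after treatment. The macrophage marker *CD68* was at or near 0 in all libraries, with 3 counts before and 0 after treatment of BT-16 and 1 before and 0 after treatment of CHLA-266. The part of either marker list in the values of the 6 genes was not tested.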

How the data were processed

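RNA was sequenced from 4 libraries of the cell lines BT-16 and CHLA-266, and the groups were taken from the labels. The authors trimmed the reads with Skewer, aligned them to hg38 with STAR, counted them per gene, and removed repeated genes and genes of the sex chromosomes. The deposited estimated counts hold 18449 symbols without normalization, and 5 values in 2 genes that were not whole were rounded. The deposited log2 values are variance-stabilized counts (VST) made by the authors with DESeq2. The methods name feature counts and a stranded library kit, and how the counting treated read pairs and strand is not given in the sources used here.

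Genes with a total of 0 (383) were left out. The other 18066 were tested with edgeR 4.0.16 in R 4.3.3 (quasi-likelihood test, TMM, Benjamini-Hochberg adjustment), with the condition alone as a term, and the cell lines were compared with the condition in the model. Standard errors are the log2 fold change divided by the square root of F. Libraries of a cell line are paired by the line itself, and how they deviate from the mean of their condition correlated at 0.342 over 12162 genes. Log2 ratios within a cell line were computed with 0.5 counts added. Exon lengths are unions over GENCODE 44 (hg38), found for 18357 symbols. Totals of 49849257 to 75087193 counts set the counting error. With the condition alone as a term, *p* values measure the spread between the cell lines only. In the comparison of the cell lines, they measure the spread left after fitting the condition and the cell line.

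The genes, lists, and tests were chosen with earlier results of these data known, and the lists were written from general knowledge. Named genes were the 6 genes, the called genes of highest and lowest log2 fold change and the most abundant gene of each list, the 5 genes most like *MDGA1*, its 3 neighbors on each side, and *SMARCB1* and *MYC*. *CD68* was named after its values were seen, and a gene left out of the lists is not reported here. Alternatives were DESeq2 1.42.0, a block for the cell line, other scalings and filters, limma 3.58.1 on the VST values, another gene length, and each library left out. Halved counts and the comparison of called genes with olfactory receptor genes were added after seeing the data. The tests were run on simulated counts in which only genes with high counts were changed and the spread was smaller than in these data. The simulation therefore does not cover genes with few counts.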

Additional observations from a re-analysis of the deposited data

Results flagged for a closer look

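A pair of genes named by the rules above went in opposite directions in the cell lines, and the difference was not tested, as it rests on 1 library for each line and condition. *CSF1R*, a macrophage receptor and the most abundant of the leukocyte markers, had a log2 ratio (treated to untreated) of 1.04 in BT-16 and -0.51 in CHLA-266. *RNF8*, a neighbor of *MDGA1*, had a log2 ratio of -0.15 in BT-16 and 0.17 in CHLA-266. None of the 6 MDGA, neuroligin, and neurexin genes went in opposite directions.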

How the results depend on the processing

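With 2 libraries per condition, a model without the cell line puts differences between the lines into its spread, and genes with under 10 counts before treatment have uncertain fold changes. Log2 fold changes on the VST values, which compress low counts, were 4.39 for *MDGA1*, 0.51 for *MDGA2*, 1.06 for *NRXN2*, 1.38 for *NRXN3*, and -0.70 for *NLGN2* in limma. Upper-quartile normalization gave 3.52 for *MDGA2*, 3.38 for *NRXN2*, and -0.52 for *NLGN2*, and *NLGN2* was at -0.64 with library totals and -0.68 when each library had to reach 10 counts. That filter left 4 of the 6 genes and 17 upregulated list genes, since fewer genes were tested, and 9 upregulated list genes lay above the olfactory receptor level. Downregulated list genes numbered 4 with upper-quartile normalization and 5 with library totals, beside 1895 and 2353 of all 18066 genes tested. When each library was left out in turn, log2 fold changes ranged from 6.02 to 6.72 for *MDGA1*, from 2.67 to 3.57 for *MDGA2*, from -0.59 to -0.30 for *NLGN1*, from -0.95 to -0.78 for *NLGN2*, from 2.84 to 3.24 for *NRXN2*, and from 3.58 to 5.45 for *NRXN3*, upregulated list genes ranged from 32 to 35 and downregulated ones from 4 (without untreated BT-16 cells) to 11, and the number of the 6 genes called lower ranged from 1 to 2 (without treated CHLA-266 cells). With the cell line as a replicate block, 2 of the 6 genes were called lower, 42 list genes were upregulated, and 12 were downregulated. Of all 18066 genes tested, 3234 were then called higher and 4288 lower. In DESeq2 with the replicate block, 44 and 11 list genes were called, beside 3710 and 3516 of all genes. The block moved no other count of calls by over 1.5 times. With the longest transcript as gene length, *MDGA1* after treatment was at 8.08 CPM per kilobase, because the lengths differ. The ratio of the MDGA sum to the sum of *NLGN1* and *NLGN2* was then 0.544. The genes nearest to *MDGA1* shared 0 of 5 on the VST values. The log2 difference between the cell lines, never past the threshold, was -0.17 for *MDGA1* with the condition left out of the model, and 0.01 and 0.00 for *NLGN1* with library totals and with the condition left out. Leaving out a library gave that comparison no test, because no residual degree of freedom was left, and values from -0.18 to 0.67 for *MDGA1*, from -0.91 to -0.49 for *MDGA2*, from -0.30 to 0.20 for *NLGN1*, and from -1.90 to -0.28 for *NRXN3*. The causes of the other shifts were not tested.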
